A study of Mus musculus with 6 samples.

Results

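The genes described here are 8 that encode the megalin and cubilin endocytic system and its close relatives in mouse: the receptors Lrp2 (megalin), Cubn (cubilin), Lrp1, Lrp5 and Lrp6, the cubilin partner Amn (amnionless), the chaperone Lrpap1 and the adaptor Dab2. They were taken by gene symbol from a table of 20896 transcripts with 1 transcript per gene, and all 8 were found. The set was chosen by the measured difference of Lrp2 between the groups in these same libraries, so that difference is given below as a description, with no interval or p, and nothing is read from counts of genes past a threshold that include Lrp2.

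RNA was sequenced from 6 clones of mpkCCD, an immortalised line of mouse cortical collecting duct cells. By the labels, 3 clones carry a double knockout of PKA, the cAMP-dependent protein kinase (PKA dKO), and 3 are control clones, with 1 library per clone. All 6 clones were grown on permeable supports for 4 days with 2% serum, insulin, dexamethasone, triiodothyronine, epidermal growth factor, selenite and transferrin. They were then kept for 3 days with 0.1 nM dDAVP (desmopressin, which acts on V2 vasopressin receptors), with neither serum nor hormones, and no library without dDAVP was analysed here. Each line is 1 clone, so differences between clones that have nothing to do with the knockout are part of the spread, and the labels do not say which PKA genes were edited.

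Megalin is a giant receptor of the LDL receptor family that sits on the apical membrane of absorptive epithelia. In the kidney it is best known from the proximal tubule, where it takes filtered proteins and vitamin carriers out of the tubular fluid through clathrin-coated pits. Cubilin has no membrane-spanning segment of its own and depends on amnionless to reach the cell surface. Dab2 links the tail of megalin to clathrin, and the product of Lrpap1, called RAP, keeps newly made receptors of this family free of ligand in the endoplasmic reticulum. Lrp1 is a wide-acting endocytic receptor, whereas Lrp5 and Lrp6 work with Frizzled proteins as co-receptors for Wnt ligands.

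The loci are given on GRCm38 as the deposited table lists them. Lrp2 (ENSMUSG00000027070.14, transcript ENSMUST00000080953.11) lies on chromosome 2 from 69424340 to 69586065 on the minus strand and its transcript has 79 exons and 15301 bases. Cubn (ENSMUSG00000026726.10, ENSMUST00000091436.6) lies on the same chromosome and strand from 13276338 to 13491813, with 67 exons and 11128 bases. Amn (ENSMUSG00000021278.7, ENSMUST00000021707.6) lies on chromosome 12 from 111271111 to 111276426, plus strand, with 12 exons and 1660 bases. Dab2 (ENSMUSG00000022150.16, ENSMUST00000080880.11) lies on chromosome 15 from 6386598 to 6440705, plus strand, with 15 exons and 4632 bases. Lrpap1 (ENSMUSG00000029103.16, ENSMUST00000030986.14) lies on chromosome 5 from 35091501 to 35105766, minus strand, with 8 exons and 2964 bases. Lrp1 (ENSMUSG00000040249.15, ENSMUST00000049149.14) lies on chromosome 10 from 127538161 to 127621148, minus strand, with 89 exons and 14709 bases. Lrp5 (ENSMUSG00000024913.16, ENSMUST00000025856.16) lies on chromosome 19 from 3584828 to 3686556 and Lrp6 (ENSMUSG00000030201.15, ENSMUST00000032322.14) on chromosome 6 from 134446476 to 134566913, both on the minus strand with 23 exons, and with 5114 and 9321 bases. All 8 are protein-coding. In the GENCODE M21 annotation 2 of them share bases with a gene on the opposite strand, Cubn with Gm13270 over 49490 bases and Lrp1 with Gm16217 over 1323 bases. These are bases of whole gene spans, introns included, and overlap of exons was not measured. The sources used here do not say whether counting used the strand, so whether reads of such a pair were mixed is not known.

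The promoter windows of Lrp2, Cubn and Amn are shown because these genes encode the 2 receptors of apical protein uptake and the partner that cubilin needs. Each window runs from 250 bases before to 50 bases after the RefSeq start of the gene (GRCm38.p6), 5′ to 3′ on the gene's own strand, with GC boxes (GGGCGG, either strand) in capitals. The windows are at chr2:69585980-69586279 for Lrp2, chr2:13491827-13492126 for Cubn (both minus strand) and chr12:111270846-111271145 for Amn (plus strand).
Lrp2: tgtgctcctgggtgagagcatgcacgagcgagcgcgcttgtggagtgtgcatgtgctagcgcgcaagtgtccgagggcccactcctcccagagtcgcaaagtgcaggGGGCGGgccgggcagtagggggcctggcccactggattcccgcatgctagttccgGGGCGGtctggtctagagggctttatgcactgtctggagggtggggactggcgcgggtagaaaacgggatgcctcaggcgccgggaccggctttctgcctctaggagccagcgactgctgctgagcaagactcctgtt
Cubn: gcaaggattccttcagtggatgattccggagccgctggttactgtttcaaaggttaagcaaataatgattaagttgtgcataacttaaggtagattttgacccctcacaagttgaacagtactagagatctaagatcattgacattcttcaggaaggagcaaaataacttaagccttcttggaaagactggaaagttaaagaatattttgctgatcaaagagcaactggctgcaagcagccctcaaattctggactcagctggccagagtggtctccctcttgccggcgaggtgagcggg
Amn: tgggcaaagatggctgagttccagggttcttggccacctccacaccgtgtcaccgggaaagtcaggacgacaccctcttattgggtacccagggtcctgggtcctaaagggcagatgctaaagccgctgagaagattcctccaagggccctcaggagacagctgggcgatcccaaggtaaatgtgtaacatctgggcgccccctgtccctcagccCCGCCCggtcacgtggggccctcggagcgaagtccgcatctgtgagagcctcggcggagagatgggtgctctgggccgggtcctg

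The Lrp2 window was 65% G and C and held 20 CpG dinucleotides and 2 GC boxes, which begin 143 and 88 bases before the start. The Cubn window was 44.3% G and C, with 5 CpG dinucleotides and no GC box, and the Amn window was 62.3% G and C, with 15 CpG dinucleotides and 1 GC box. A GC box was found in 35.7% of the 32851 promoter windows of this length. RefSeq windows were found for 6 of the 8 genes, Dab2 with a pair of them. None of these windows held the cAMP response element TGACGTCA, present in 1.79% of all windows, or its half-site TGACG, which is part of it and present in 20.8%, on either strand. The PPAR direct repeat and the TATA box TATAAA, present in 0.0396% and 13.6% of windows, were not found either. A missing match says only that these letters are not in this window.

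Whole reads recovered from the deposited values numbered 28596444 to 42515838 per library, and levels are given in CPM, the usual measure of reads relative to library size, after library sizes were adjusted by TMM, a trimmed mean of the ratios between libraries. Prkaca, which encodes the alpha catalytic subunit of PKA, had 6.65, 8.49 and 7.43 CPM in the dKO clones, against 133, 75.9 and 90.6 CPM in the control clones. Prkacb, for the beta subunit, had 99.1, 105 and 105 CPM in the dKO clones, against 137, 109 and 116 CPM in the control clones, and mRNA outside an edited site does not check a label. dKO clone 3 and control clone 1 stood apart from the other 4 libraries, with 2363 and 2443 transcripts without a read against 863 to 1045. The fold changes of the 8 genes are therefore also shown within those 4 libraries. Related genes and markers are given with all 6 libraries only. Across all genes, 28 of 16683 transcripts tested passed an adjusted p of 0.05 (limma-trend, Benjamini-Hochberg), 0.168%, with 9 higher (0.0539%) and 19 lower (0.114%) in dKO clones, and 6.25% had an unadjusted p under 0.05. In 10.8% of transcripts tested the values of the groups did not overlap.

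Lrp2 mRNA was higher in dKO clones. The gene had 687, 851 and 821 CPM in dKO clones 1, 2 and 3, against 390, 392 and 299 CPM in control clones 1, 2 and 3. The lowest dKO value was well above the highest control value, and no pair of clones overlapped. The means were 786 ± 87.5 CPM in dKO clones and 360 ± 53.5 CPM in control clones (SD, n = 3 each). The fitted fold change was 2.19, which is 1.13 on the log2 scale. Counting error adds little here, since between 26882 and 29258 Lrp2 reads were recovered in the dKO libraries and between 11983 and 14110 in the control libraries.

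Lrp2 was the 1 gene of the 8 among the 28 past the threshold, against 0.168% of all transcripts, and nothing is read from that count. Within the 4 libraries other than the pair that stood apart the difference was 1.17 on the log2 scale, and between dKO clone 3 and control clone 1 it was 1.07. With each library's chromosome medians removed it was 1.09. Leaving out 1 library at a time gave log2 fold changes of 1.00 to 1.23. Since no pair of clones overlapped, leaving out libraries could not turn the sign of Lrp2.

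**Figure D1:**
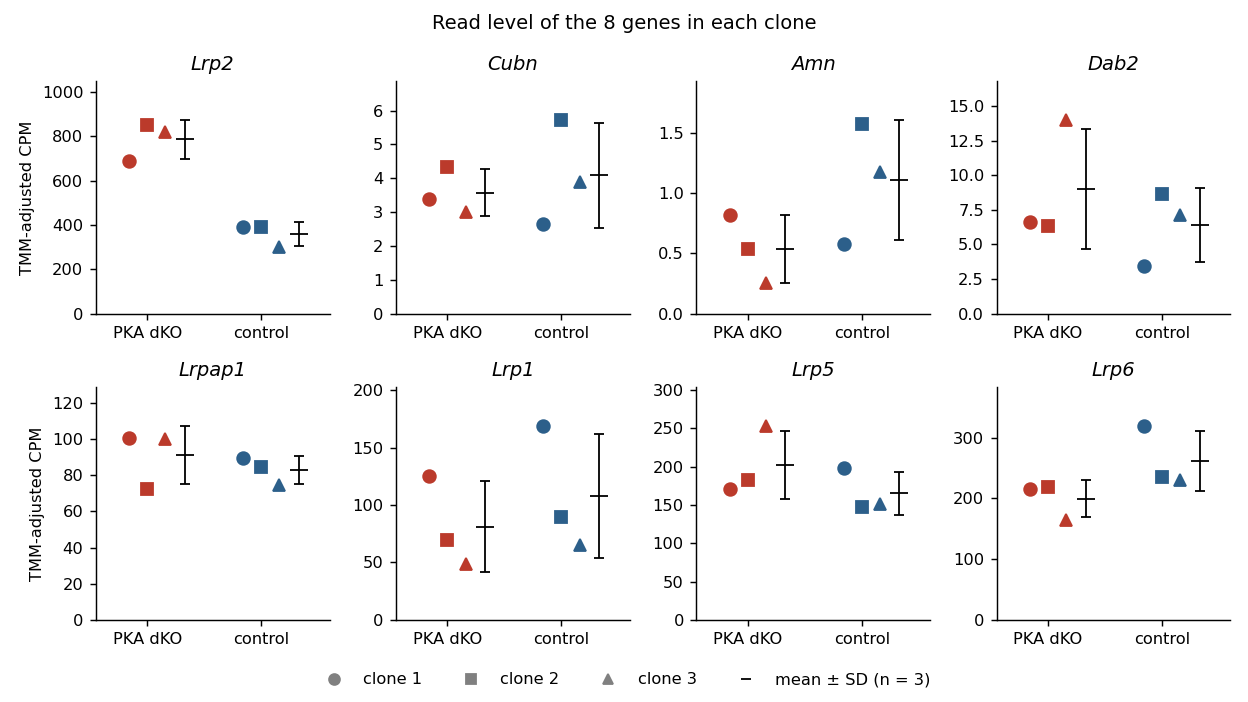
TMM-adjusted CPM of the 8 genes (vertical axis, starting at 0) in PKA dKO clones (red, left) and control clones (blue, right); symbols mark clones 1 to 3 and the black bar the mean ± SD over 3 clones. Lrp2 lies at 687 to 851 CPM in dKO clones and at 299 to 392 CPM in control clones, and Lrp6 is the other gene whose groups do not overlap.

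The partners of megalin in protein uptake had far fewer reads, and neither passed the test. Cubn had 3.39, 4.34 and 3.00 CPM in dKO clones, against 2.66, 5.73 and 3.89 CPM in control clones. The dKO values lay inside the range of the control values. Its log2 fold change was -0.14 (95% interval -0.88 to 0.60; limma adjusted p = 1.00), and its sign turned to 0.13 without control clone 2. The interval allows anything between a fall to 0.543 of the control level and a rise to 1.52 times that level. Within the 4 libraries the log2 fold change of Cubn was -0.29, and between dKO clone 3 and control clone 1 it was 0.17.

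Amn had 0.822, 0.538 and 0.253 CPM in dKO clones, against 0.581, 1.57 and 1.17 CPM in control clones. Only 33, 17 and 9 reads stood behind the dKO values, and 21, 48 and 51 behind the control values. Control clone 1 lay between the dKO clones, so the groups overlapped. The log2 fold change of -0.997 had a 95% interval of -2.42 to 0.43 and did not pass (limma adjusted p = 1.00).

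Both partners were low enough to be set beside genes known mainly from other tissues. As a gauge, 1349 transcripts of olfactory and vomeronasal receptors, genes of sensory neurons, were taken in RPKM, which is CPM divided by transcript length in kilobases. In the dKO libraries 89.7% to 98.8% of these transcripts lay below Cubn and 84.4% to 97.4% below Amn. In the control libraries 89.8% to 98.4% lay below Cubn and 99.3% to 99.9% below Amn. The median of these sensory transcripts was 0.0113 to 0.136 RPKM in dKO libraries and 0.0112 to 0.183 RPKM in control libraries, lowest in dKO clone 3 and control clone 1. Cubn was also lowest of its group in each of these 2 libraries, and so was Amn. The part of this background in the values of Cubn and Amn was not tested.

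The chaperone and the adaptor of megalin did not pass either. Lrpap1, whose product RAP escorts receptors of this family, had 101, 72.6 and 100.2 CPM in dKO clones, against 89.5, 84.8 and 74.7 CPM in control clones. Clone 2 was the lowest of the dKO clones and lay below all control clones, while the other dKO clones lay above them. The log2 fold change was 0.12 (95% interval -0.21 to 0.46; limma adjusted p = 1.00), an upper bound of 1.38-fold.

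Dab2, the clathrin adaptor, had 6.65, 6.37 and 14.0 CPM in dKO clones, against 3.43, 8.61 and 7.14 CPM in control clones. Its highest value was in dKO clone 3 and its lowest in control clone 1, the libraries that stood apart. The log2 fold change was 0.49 (95% interval -0.35 to 1.34; limma adjusted p = 1.00). Within the other 4 libraries it was -0.26, and between dKO clone 3 and control clone 1 it was 2.01, so the direction of Dab2 depends on those libraries.

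Lrp1 varied more between clones of a group than between the groups. It had 125, 69.8 and 48.4 CPM in dKO clones, against 169, 90.0 and 65.1 CPM in control clones. The ranges overlapped widely, and in both groups clone 1 was the highest and clone 3 the lowest. The log2 fold change was -0.41 (95% interval -1.20 to 0.38; limma adjusted p = 1.00). Within the 4 libraries it was 0.29, and between dKO clone 3 and control clone 1 it was -1.80.

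The Wnt co-receptors Lrp5 and Lrp6 had fold changes of opposite sign, and neither passed. Lrp5 had 170.2, 183 and 253 CPM in dKO clones, against 198, 147 and 151 CPM in control clones. dKO clone 3 was the highest, and control clone 1 lay above the other dKO clones. Its log2 fold change was 0.28 (95% interval -0.10 to 0.67; limma adjusted p = 0.978). Within the 4 libraries it was 0.25, and between dKO clone 3 and control clone 1 it was 0.36. Without dKO clone 3 alone it was 0.11. Chromosome 19, which carries Lrp5, had a median log2 fold change of 0.13 over its 620 tested transcripts, and Lrp5 stood at 0.15 (SE 0.15) once chromosome medians were removed.

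Lrp6 had 215, 219 and 164 CPM in dKO clones, against 319.5, 236 and 230.1 CPM in control clones. All dKO values lay below all control values, though dKO clone 2 and control clone 3 were close. The log2 fold change was -0.39 (SE 0.17; 95% interval -0.76 to -0.02), with an unadjusted p of 0.0407 and an adjusted p of 0.740 in the limma fit. Lrp6 lies on chromosome 6, whose 877 tested transcripts had a median deviation of -0.40 on the log2 scale in dKO clone 3, against 0.03 to 0.19 in the other libraries. With chromosome medians removed Lrp6 stood at -0.22 (SE 0.16), within the 4 libraries at -0.10, and between dKO clone 3 and control clone 1 at -0.96. Groups without overlap were thus found for 2 of the 8 genes, Lrp2 and Lrp6, against 10.8% of all transcripts tested, and since the difference of Lrp2 chose the set nothing is read from that count.

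**Figure D2:**
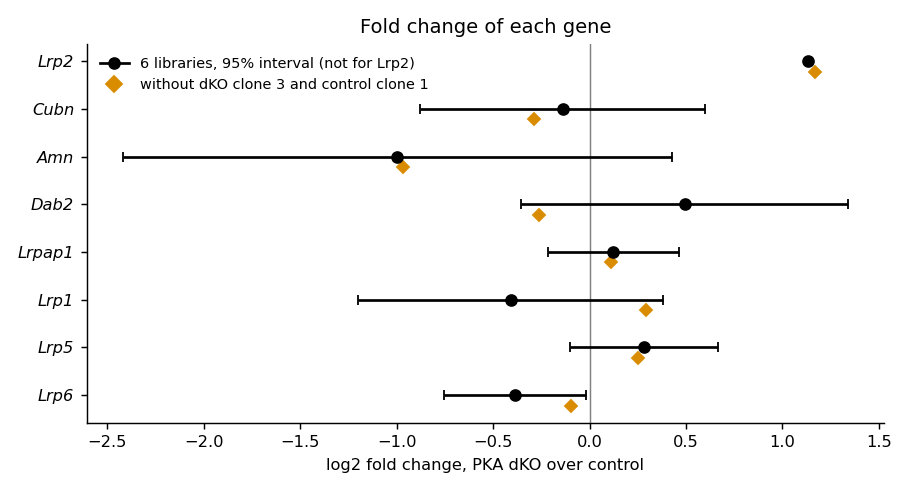
Log2 fold change of each gene, PKA dKO over control (horizontal axis), from the fit over 6 libraries (black points, with 95% intervals except for Lrp2, whose difference chose the set) and within the 4 libraries other than dKO clone 3 and control clone 1 (orange diamonds). Lrp2 is at 1.13 with 6 libraries and at 1.17 with 4, whereas Dab2 and Lrp1 lie on opposite sides of 0 in the 2 fits and Lrp6 is at -0.39 with 6 libraries and at -0.10 with 4.

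Levels can be compared between the genes only per length of transcript. In RPKM, Lrp2 averaged 51.4 ± 5.72 in dKO clones and 23.6 ± 3.50 in control clones. Lrp5 averaged 39.5 ± 8.73 in dKO clones and 32.3 ± 5.51 in control clones, Lrpap1 30.8 ± 5.45 and 28.0 ± 2.54, and Lrp6 21.4 ± 3.27 and 28.1 ± 5.37, in the same order of groups. Lrp1 followed with 5.51 ± 2.69 RPKM in dKO clones and 7.35 ± 3.69 RPKM in control clones, and Dab2 with 1.94 ± 0.934 and 1.38 ± 0.576. Amn had 0.324 ± 0.171 RPKM in dKO clones and 0.668 ± 0.300 in control clones, and Cubn 0.321 ± 0.0619 and 0.368 ± 0.139. The order in the control clones ran from Lrp5 through Lrp6 and Lrpap1 to Lrp2, and each overlapped its neighbour in that order, while the ranges of Lrp2 and Lrp5 did not overlap. In the dKO clones Lrp2 came first, and its range overlapped that of Lrp5 but not those of Lrpap1 and Lrp6. Amn and Cubn overlapped in both groups.

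**Figure D3:**
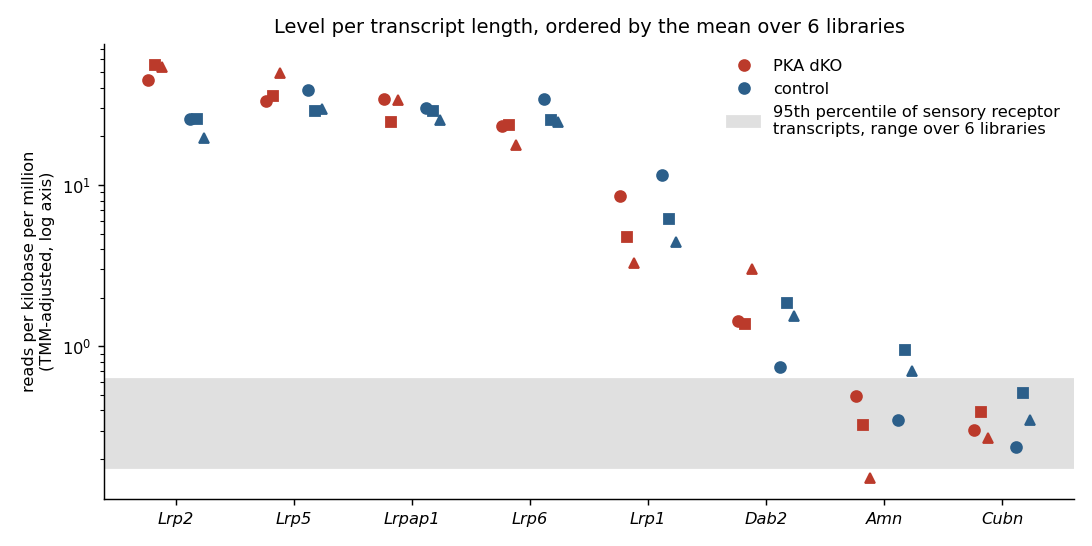
Level of the 8 genes per transcript length (RPKM, log axis) in PKA dKO clones (red, left of each pair) and control clones (blue), ordered by the mean over 6 libraries; the grey band spans the 95th percentile of olfactory and vomeronasal receptor transcripts over the 6 libraries. By group means, Lrp2 changes its place relative to Lrp5, Lrpap1 and Lrp6 between the groups. In control clone 2 Lrp2 is nonetheless just above Lrp6 (25.6 against 25.3 RPKM). Cubn lies in the band in all 6 libraries. Cubn is above its own library's 95th percentile in dKO clone 3 (0.270 against 0.1775 RPKM) and control clone 1 (0.239 against 0.176 RPKM). In the other libraries Cubn is below that percentile.

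Ratios within a library do not depend on how libraries are scaled. All ratios here hold Lrp2, whose difference chose the set, so they restate that difference in part and are given with no test. From the deposited FPKM values (the authors' fragments per kilobase and library size), Lrp2 stood at 1.35, 1.56 and 1.08 times the level of Lrp5 in dKO clones 1, 2 and 3, against 0.660, 0.891 and 0.662 times in control clones 1, 2 and 3. Lrp2 thus exceeded Lrp5 in all 3 dKO clones and was below it in all 3 control clones. Relative to its chaperone gene Lrpap1, Lrp2 stood at 1.32, 2.27 and 1.59 times in dKO clones, against 0.845, 0.896 and 0.774 times in control clones. The ratio of Lrp2 to Cubn was 142 to 199 in dKO clones and 49.8 to 107 in control clones. The ratio to Dab2 overlapped between the groups, at 16.4 to 38.4 in dKO clones and 13.2 to 32.7 in control clones.

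Lrp2 made up 40.9%, 46.5% and 43.2% of the summed RPKM of Lrp2, Lrp1, Lrp5 and Lrp6 in dKO clones, against 23.2%, 29.9% and 24.98% in control clones. The sum without Lrp2 was 66.4 ± 3.48 RPKM in dKO clones and 67.7 ± 14.5 RPKM in control clones, a difference smaller than the spread between control clones. Lrp6 took 14.2% to 21.04% in dKO clones and 29.5% to 31.6% in control clones. These shares restate the difference of Lrp2 that chose the set and are given with no test.

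**Figure D4:**
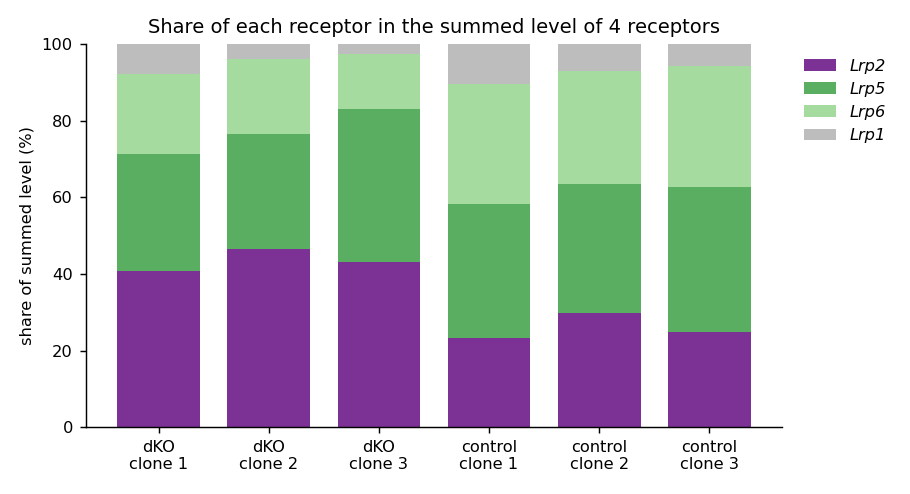
Share of Lrp2, Lrp5, Lrp6 and Lrp1 in their summed level per transcript length (vertical axis, percent) in each library, PKA dKO clones left and control clones right. Lrp2 takes 40.9% to 46.5% in dKO clones and 23.2% to 29.9% in control clones.

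The authors' deposited table of their own edgeR comparison lists 6 of the 8 genes, without Cubn and Amn, and gives Lrp2 a log2 fold change of 1.10. A false discovery rate under 0.05 was given to 354 of 10190 transcripts in the authors' deposited table, 3.47%, with 100 higher (0.981%) and 254 lower (2.49%) in dKO clones. Lrp2 was among these transcripts, and since its difference in these data chose the set, nothing is read from that. The rates of Lrp6 (0.190), Lrp5 (0.441), Lrp1 (0.729), Dab2 (0.764) and Lrpap1 (0.868) in the authors' deposited table were all above 0.05.

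The genes whose levels followed Lrp2 most closely over the 6 libraries, among 8827 named genes with a mean of at least 10 CPM, were Rev3l, Ube2d1, Ccdc18, Abhd10 and Lrrc40, by Pearson's r on log2 CPM. Rev3l, which encodes the catalytic subunit of a translesion DNA polymerase, had an r of 0.996, and Lrrc40 had 0.971. Their own differences were small: Rev3l averaged 368 ± 11.4 CPM in dKO clones and 299 ± 11.5 CPM in control clones, a log2 fold change of 0.30, and Ccdc18 reached 0.56. The lowest coefficients were those of Cct5, a chaperonin subunit gene (-0.991), the mitochondrial calcium uniporter gene Mcu (-0.980) and the NAD kinase gene Nadk2 (-0.978). Cct5 averaged 402 ± 18.1 CPM in dKO clones and 518 ± 32.1 CPM in control clones. With 6 libraries and this many genes, such coefficients are a description only. All of them are taken with Lrp2, whose difference chose the set, so they restate that difference in part. Among the other members r with Lrp2 ran from -0.70 for Amn to 0.62 for Lrp5.

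Of 108 symbols in 5 lists of related genes, 96 were tested, and none passed the threshold over all genes in either direction, against 0.168% of all transcripts (limma-trend). An unadjusted p under 0.05 was found for 7 of the 96, against 6.25% of all transcripts. edgeR's quasi-likelihood test also called 0 of them, against 0.168%, and DESeq2 called 3, Fzd2, Rnf43 and Tcn2, against 1.28%. Groups did not overlap for 3 of the 96 in the higher direction and for 7 in the lower, against 5.17% and 5.68% of all transcripts. The median log2 fold change of all transcripts tested was 0.00, and 49.8% of them were positive.

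Other genes of the LDL receptor family differed in both directions, and none passed. Their median log2 fold change was -0.02 over 9 tested genes, 4 positive and 5 negative, and the groups overlapped for all 9. Vldlr, a receptor for triglyceride-rich lipoproteins, had 179 ± 38.8 CPM in dKO clones and 199 ± 26.5 CPM in control clones, a log2 fold change of -0.17 (95% interval -0.54 to 0.21). Lrp4 stood at -0.16 and Lrp12 at 0.18. The highest values, looked up after the list was tested, were 0.86 for Lrp3, 0.48 for Lrp1b and 0.26 for Lrp11 (limma adjusted p = 1.00 each), with mean levels over the 6 libraries of 0.123, 0.0963 and 1.12 RPKM. Per length, Vldlr had 22.6 RPKM in dKO clones and 25.1 RPKM in control clones.

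None of the genes of the clathrin coat, its adaptors and apical recycling passed. Their median log2 fold change was -0.04 over 23 genes, 9 positive and 14 negative. Epn1, an epsin that bends coated membrane, had the lowest p of the list, with 71.8 ± 10.2 CPM in dKO clones and 88.9 ± 19.7 CPM in control clones (log2 fold change -0.30; limma adjusted p = 0.949). The AP-2 subunit gene Ap2m1 stood at -0.13, the motor gene Myo6 at -0.15 and Eps15 at 0.12. Gipc1, whose product binds the tail of megalin, stood at -0.03, and Gipc1 and Ap2m1 had the highest levels per length of the list, 123 and 155 RPKM in dKO clones and 128 and 170 RPKM in control clones.

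Among partners of the Wnt co-receptors the median was -0.09 over 25 genes, 9 positive and 16 negative. Rnf43, a ubiquitin ligase that removes Frizzled and Lrp6 from the surface, had 11.1, 9.03 and 7.49 CPM in dKO clones, against 5.01, 2.95 and 3.73 CPM in control clones. All its dKO values lay above all control values, with a log2 fold change of 1.24 (SE 0.27), but it did not pass (limma adjusted p = 0.157), while in the authors' deposited table its rate was 6.62e-04. The Frizzled receptor gene Fzd2 stood at 0.57 without overlap between the groups, and Fzd4 and Fzd6 at -0.51 and -0.44, also without overlap (limma adjusted p = 0.214, 0.473 and 0.572). The authors' deposited table gives rates of 0.0129 for Fzd2, 0.0737 for Fzd4 and 0.0239 for Fzd6. Axin1, a scaffold of the beta-catenin destruction complex, stood at -0.08.

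Ligands of these receptors had a median of -0.14 over 28 genes, 9 positive and 19 negative (32.1% positive, against 49.8% of all transcripts tested). Some were near the floor, looked up after the list was tested. Serpine2 (-0.88), Shh (-0.84) and Vtn (-0.76) had mean levels over the 6 libraries of 0.153, 0.171 and 0.260 RPKM. Among positive ones, Alb (0.15) had 0.176 RPKM. Tcn2, the vitamin B12 carrier transcobalamin that megalin takes up, had 13.9, 11.97 and 15.1 CPM in dKO clones, against 25.4, 25.5 and 22.04 CPM in control clones. The groups were well apart, with a log2 fold change of -0.83 (SE 0.16), yet it did not pass (limma adjusted p = 0.111), whereas the authors' deposited table gives it a rate of 5.48e-04. Sparc, a matrix protein gene, stood at 1.90 (SE 0.49; limma adjusted p = 0.267), with dKO values of 33.7, 12.7 and 22.8 CPM against control values of 13.9, 3.14 and 4.19 CPM that overlap them. In the authors' deposited table the rate of Sparc was 5.70e-03. Ctgf stood at -0.34 and Plau, the urokinase gene, at 0.41. The highest levels per length in this list were those of Mt1, a metallothionein (333 RPKM in dKO clones and 387 RPKM in control clones), and Lcn2, lipocalin-2 (488 and 463 RPKM), with log2 fold changes of -0.24 and 0.06.

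Transcription factor genes listed as reported to act on Lrp2 or Cubn had a median of 0.03 over 11 genes, 6 positive and 5 negative. Rxra stood at -0.21, Rara at 0.20, Pax2 at -0.28, Pax8 at -0.14 and Sp1 at 0.05. Pax8 and Sp1 were the highest of the list per length.

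**Figure D5:**
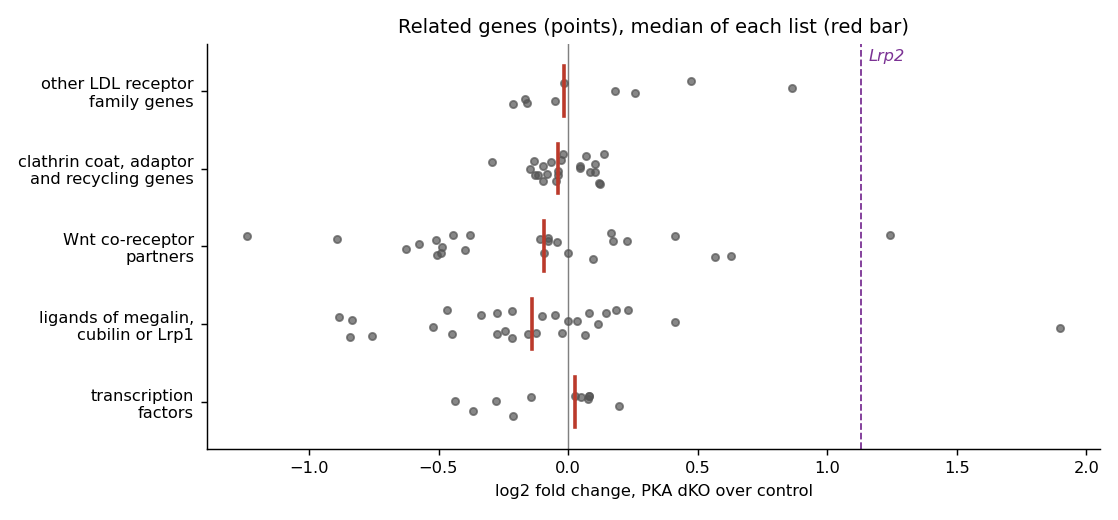
Log2 fold change, PKA dKO over control (horizontal axis), of each tested gene in 5 lists of related genes; the red bars are list medians, the grey line the median of all transcripts tested and the dashed line Lrp2. List medians lie between -0.14 and 0.03, and 2 of the 96 genes, Rnf43 and Sparc, lie above Lrp2.

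Marker genes of several cell types were looked up in each library. Of 16 principal-cell markers 15 were in the table, with a summed level of 4682 to 4989 CPM in dKO libraries and 4911 to 5766 CPM in control libraries, carried mainly by the keratin genes Krt8 and Krt18, Cdh1, Tfcp2l1 and Scnn1a. Aqp2, the vasopressin-controlled water channel of principal cells, was near absent in dKO clones at 2.64 CPM on average, against 232 CPM in control clones. Gata3 averaged 101 CPM in dKO clones and 127 CPM in control clones, and Avpr2, the V2 receptor gene, 46.8 and 58.6 CPM. Scnn1g averaged 37.2 and 34.8 CPM and Hsd11b2 23.1 and 30.7 CPM, in the same order of groups. Several others were low in both groups. Aqp3 averaged 1.69 CPM in dKO clones and 1.48 CPM in control clones, and Scnn1b 2.38 and 2.16 CPM. Aqp4 had 0.373, 0.507 and 0.140 CPM in dKO clones, against 7.94, 1.18 and 10.8 CPM in control clones, without overlap. Its log2 fold change was -3.72, and it did not pass (limma adjusted p = 0.129). Kcnj1 averaged 0.757 and 0.642 CPM and Elf5 0.549 and 0.867 CPM, in the same order of groups. The summed level alone therefore does not place the clones as principal cells. Of 20 proximal-tubule markers 18 were in the table, and they summed to 17.7 to 27.3 CPM in dKO libraries and 16.1 to 30.3 CPM in control libraries. None of the 17 tested passed, and the defining transporter genes Slc34a1, Slc5a2, Slc22a6 and Slc22a8 had at most 6.51 CPM in dKO libraries and 5.07 CPM in control libraries, both in Slc5a2. Intercalated-cell markers summed to 77.9 to 171 CPM in dKO libraries and 33.1 to 58.4 CPM in control libraries, without overlap. Of these Rhcg, the ammonia transporter gene, passed (25.2, 78.0 and 146 CPM in dKO clones, against 6.09, 2.03 and 1.80 CPM in control clones; limma). The other 8 did not pass and differed in both directions on the log2 scale. Foxi1 stood at -1.46, Rhbg at -0.74, Atp6v0d2 at -0.68 and Slc4a9 at -0.17. Slc4a1 stood at 0.80, Aqp6 at 0.48, Atp6v1b1 at 0.12 and Slc26a4 at 0.10. Without Rhcg the sums, added after seeing the data, were 52.7, 54.1 and 24.7 CPM in dKO libraries, against 52.3, 37.7 and 31.3 CPM in control libraries, and the groups overlapped. The part of these markers in the difference of Lrp2 was not tested. Of the other lists, with no gene past the threshold, thick ascending limb and distal tubule markers summed to 0.898 to 3.01 CPM in dKO libraries and 2.90 to 3.90 CPM in control libraries (4 of 5 in the table). Podocyte markers (5 of 5) summed to 158 to 171 CPM in dKO libraries and 163 to 192 CPM in control libraries, mostly through Podxl. Fibroblast markers (6 of 7) summed to 2.19 to 5.61 CPM in dKO libraries and 1.71 to 7.99 CPM in control libraries, and endothelial markers (4 of 4) to 0.954 to 4.72 and 1.55 to 4.58 CPM in the same order of groups. Leukocyte markers (3 of 5) summed to 34.3 to 68.8 CPM in dKO libraries and 37.5 to 59.1 CPM in control libraries, mostly through Csf1r. No listed marker in the table was at 0 in all libraries. In bulk RNA, more cells with Lrp2 and more Lrp2 RNA per cell cannot be told apart.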

How the data were processed

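Per the labels' protocols, 262 ng of total RNA per sample went into a stranded kit after ribosomal RNA removal. Tools named in the submitters' processing notes, with no role given, are HOMER 4.8, STAR 2.5.2a, edgeR and SAMtools, and the build is GRCm38.p5. The deposited read columns are a signal: the authors scaled each library to a common total. Dividing by each library's step gave whole reads for 100% of values (tolerance 0.01). FPKM values are as deposited by the authors, and so are transcript lengths; the authors' deposited comparison table holds edgeR log2 fold changes, p-values and false discovery rates.

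limma-trend (limma 3.58.1, R 4.3.3) was fitted on log2 of scaled reads with TMM factors (edgeR 4.0.16) and a pseudocount of 1 scaled read, about 0.055 CPM, which understates changes of low genes. Transcripts kept by filterByExpr (minimum 10 reads, total 15) numbered 16683. CPM and RPKM use recovered reads and the same factors. Benjamini-Hochberg adjustment ran over all transcripts tested. Each p-value sets a difference between groups beside the clone-to-clone spread, part of which may be technical. Alternatives included edgeR's quasi-likelihood test and DESeq2 1.42.0 on recovered reads. The fit was tested on simulated data. Members and lists were chosen with earlier results of these data known. Genes named are the members, the 5 highest and 3 lowest by correlation with Lrp2, and from each list the 4 with the lowest p and the 2 with the highest level, except 2 genes that are not reported here; the proteins' sequences were not used here.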

Additional observations from a re-analysis of the deposited data

How the results depend on the processing

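Lrp2 kept its direction in all 20 alternative fits (log2 fold change 1.00 to 1.23), with 1.14 on deposited FPKM. Every dKO clone lay above every control clone, so leaving out libraries could not turn this sign. On FPKM and without dKO clone 1, dKO clone 2 or control clone 3 Lrp2 left the genes past the threshold. Since its difference chose the set, neither the kept direction nor these calls say anything about its stability. None of the other 7 genes passed in any alternative. Signs turned for Cubn without control clone 2 (0.13; -0.41 to 0.13 over the alternatives), for Dab2 (-0.26) and for Lrp1 (0.29) within the 4 libraries; the cause was not tested. Genes past the threshold numbered 28 with all libraries, 28 with edgeR's quasi-likelihood test, 213 with DESeq2, 91 on FPKM, 17 without TMM, 71 with a term for the libraries that stood apart, 518 within the 4 libraries and 11 to 146 leaving out 1 library. With clone number as a replicate block 196 passed. However, the deviations of clones with the same number correlated at -0.36, 0.64 and -0.34. Not every clone correlated best with its own number, so the numbers were not taken as pairs. Lrp2 stayed at 1.13, which this term could not change, since each clone number occurs once in each group. By Spearman's rho, 1 of the 5 genes most like Lrp2 was among those sharing the highest value. Depth limits Amn most, at 9 to 51 reads.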
